A study of Rattus norvegicus with 5 samples.

Results

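The genes described here encode the subunits of the mitochondrial respiratory chain, complexes I to V, as measured in primary rat hepatic stellate cells. They are the probes whose annotated symbol starts with Ndufa, Ndufb, Ndufc, Ndufs, Ndufv, Sdha, Sdhb, Sdhc, Sdhd, Uqcr, Cox4, Cox5, Cox6, Cox7, Cox8 or Atp5, without the Ndufaf assembly factors, and with a detection p-value under 0.01 on at least 1 of 5 arrays. Of 64 such genes on the array, each with 1 probe, 59 met the detection rule, out of 7051 named genes that met it in the whole series. They comprise 28 of 30 genes of complex I, 6 of 6 of complex II, 4 of 4 of complex III, 8 of 11 of complex IV and 13 of 13 of complex V. The prefixes also admit the complex II assembly factors Sdhaf2 and Sdhaf3, the supercomplex factor Cox7a2l and Ndufs6-ps1, annotated as a pseudogene, and 55 members remain without them.

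The cells came from male Wistar rats aged 10 weeks. Total RNA was hybridised to 5 Illumina bead arrays. A single array carries the label of freshly isolated cells that had no treatment. Another 2 arrays carry vehicle-treated cells of day 3, and the last 2 carry day 3 cells exposed to 100 nM calcitriol, the vitamin D hormone 1,25(OH)2D3, for 24 h. Hepatic stellate cells store vitamin A in the healthy liver and turn into matrix-producing myofibroblasts in injury or on culture plastic. The study asked how ligands of the vitamin D receptor act on that activated state. Nothing in the labels ties replicates to different animals or cultures, so p-values cover only the spread between arrays, and this may be technical.

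The respiratory chain is built in the inner mitochondrial membrane. Complex I (NADH dehydrogenase) and complex II (succinate dehydrogenase, which is also an enzyme of the citric acid cycle) pass electrons to ubiquinone. Complex III (cytochrome bc1) passes them on to cytochrome c, and complex IV (cytochrome c oxidase) passes them to oxygen. Complexes I, III and IV pump protons, and complex V (ATP synthase) uses the proton gradient to make ATP. The genes measured here are nuclear, and their proteins are imported and assembled with subunits encoded by mitochondrial DNA, apart from complex II, whose subunits are all nuclear.

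The array labelled freshly isolated stood closer to the calcitriol arrays than to the vehicle arrays. Across the 9737 probes tested, its log2 levels correlated with those of the calcitriol arrays at Pearson r = 0.990 and 0.989, and with those of the vehicle arrays at 0.980 and 0.981. Cyp24a1, which degrades calcitriol and is a classic gene of the vitamin D response, was detected on it with a signal of 381.9 units, beside 509.9 and 590.7 units with calcitriol, while the vehicle signals of 105.2 and 84.37 units were not detected. The label of the array names no treatment, and the source of this signal was not tested. Comparisons with the array labelled freshly isolated are given apart from the comparison of calcitriol with vehicle. For the latter, values without that array are also given. Mean signal ran from 608.2 units (vehicle array 2) to 854.8 units (the freshly isolated label), and 8316 to 9112 of 22523 probes were detected per array. Of the stellate cell markers on the array, 11 of 13 were detected on at least 1 array (Gfap and Rgs5 were not). Of macrophage markers 12 of 12 were detected, and of hepatocyte markers 1 of 10, Serpina1, while Alb was not. Markers of sinusoidal endothelium were detected for 4 of 5 genes, with 1 of them on all arrays. For biliary markers the count was 1 of 3 and for lymphocyte markers 1 of 4. In a bulk sample, a change in the share of a cell type and a change of RNA per cell cannot be told apart.

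Respiratory chain genes were expressed on every array, and no member passed the test between groups. Of the 59 members, 57 were detected on all 5 arrays, and the exceptions, Atp5mc3 and Ndufs6-ps1, were each detected on 4. The median member had a log2 level of 11.92 over the 5 arrays, against 8.45 for all probes tested. The median difference between replicate arrays was 0.10 log2 units with vehicle and 0.13 with calcitriol, against 0.17 and 0.16 for all probes tested, and the members' brightness differs from that of all probes, whose part in this was not tested. In each of the 3 comparisons, 0 of 59 members passed an adjusted p of 0.05 in limma, a linear model fitted to all probes tested.

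The 5 members of the symbol list that missed the detection rule were Ndufb4, Ndufs4, Cox6a2, Cox8b and Cox8c. Cox6a2 and Cox8b are the forms of their subunits used in heart and skeletal muscle, and Cox8c is a testis form. Their partners in other tissues, Cox6a1 and Cox8a, were detected on all arrays. Just outside the rule, Ndufb4 had a lowest detection p of 0.0388 and signals of 117.4 to 131.1 units. Just inside it, Atp5mc3 reached a detection p of 0.00242 with signals of 103.5 to 209.4 units, and Ndufs6-ps1, the pseudogene of the complex I subunit Ndufs6, had signals of 139.5 to 212.8 units.

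Promoters of these nuclear genes are shown because they hold sequence features that the symbol rule did not use. RefSeq sequence of build GRCr8 was found by gene identifier for 51 of the 59 members, and the 250 bases before each annotated start were searched on both strands. The palindromic motif of nuclear respiratory factor 1 (NRF1), marked in capitals in the promoter of Ndufa11, was present in 4 of 51 members (7.84%), in 1.95% of 5903 promoters of genes tested on the arrays and in 0.849% of all 27457 promoters. The core motif of ETS factors such as GABP, ccggaag, was present in 17 of 51 members (33.3%), 17.0% of tested genes and 7.74% of all promoters. A total of 20 members held at least 1 of these motifs and 1 member, Atp5me, held both. The SP1 motif gggcgg was found in 35.3% of members, 59.5% of tested genes and 32.4% of all promoters, and tataaa in 5.88%, 7.13% and 13.1%. The YY1 motif aagatggc was found in 3.92%, 2.37% and 1.69%. The vitamin D response element (DR3, a direct repeat with a spacer of 3 bases of any kind) was found in 0 of 51 members, 1.17% and 1.58%. These are matches of letters and were not tested as sites.

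The following sequences give, for each complex, a promoter with such a match, and also that of Ndufs3, the subunit with the largest difference between calcitriol and vehicle. Each runs 5′ to 3′ on the gene's strand and ends at the base before the annotated start. Capitals mark the NRF1 and ETS motifs, on either strand, and overlapping matches run together in Ndufa11, which holds 2 NRF1 matches that share 4 bases.
Ndufa11 (GRCr8, chr9:1637364-1637613, plus strand): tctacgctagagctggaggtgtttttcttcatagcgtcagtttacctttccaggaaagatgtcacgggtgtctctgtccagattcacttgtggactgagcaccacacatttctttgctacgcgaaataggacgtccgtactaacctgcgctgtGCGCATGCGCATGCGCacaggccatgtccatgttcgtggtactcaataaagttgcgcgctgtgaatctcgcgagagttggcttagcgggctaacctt
Ndufs3 (GRCr8, chr3:97339655-97339904, minus strand): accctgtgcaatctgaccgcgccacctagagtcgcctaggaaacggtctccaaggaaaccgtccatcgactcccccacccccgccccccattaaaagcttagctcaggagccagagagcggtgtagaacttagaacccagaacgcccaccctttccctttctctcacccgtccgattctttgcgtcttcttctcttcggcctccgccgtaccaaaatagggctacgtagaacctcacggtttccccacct
Sdhb (GRCr8, chr5:158547684-158547933, plus strand): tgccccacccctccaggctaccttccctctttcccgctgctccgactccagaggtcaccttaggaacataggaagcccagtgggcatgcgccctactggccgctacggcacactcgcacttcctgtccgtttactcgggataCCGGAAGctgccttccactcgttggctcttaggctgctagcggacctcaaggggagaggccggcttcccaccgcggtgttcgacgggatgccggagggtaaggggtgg
Uqcrh (GRCr8, chr5:134790883-134791132, minus strand): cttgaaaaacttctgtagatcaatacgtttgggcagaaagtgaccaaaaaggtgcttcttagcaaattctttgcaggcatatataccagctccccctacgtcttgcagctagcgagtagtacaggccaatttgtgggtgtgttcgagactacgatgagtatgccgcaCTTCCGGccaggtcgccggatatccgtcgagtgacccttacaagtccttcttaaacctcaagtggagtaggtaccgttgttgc
Cox8a (GRCr8, chr1:213833624-213833873, minus strand): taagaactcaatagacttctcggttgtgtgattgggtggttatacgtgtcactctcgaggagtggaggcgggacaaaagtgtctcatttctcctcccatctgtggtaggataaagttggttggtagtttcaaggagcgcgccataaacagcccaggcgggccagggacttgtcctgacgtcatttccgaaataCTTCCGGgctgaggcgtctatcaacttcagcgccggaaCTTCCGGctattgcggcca
Atp5me (GRCr8, chr14:1464610-1464859, plus strand): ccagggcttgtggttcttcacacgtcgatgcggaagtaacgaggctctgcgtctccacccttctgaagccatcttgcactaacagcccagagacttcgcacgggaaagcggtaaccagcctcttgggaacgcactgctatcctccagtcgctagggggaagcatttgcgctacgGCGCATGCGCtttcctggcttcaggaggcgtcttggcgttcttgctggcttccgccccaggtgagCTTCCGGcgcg
Ndufs3 has neither motif in this window, and Cox8a has 2 ETS matches.

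**Figure D1:**
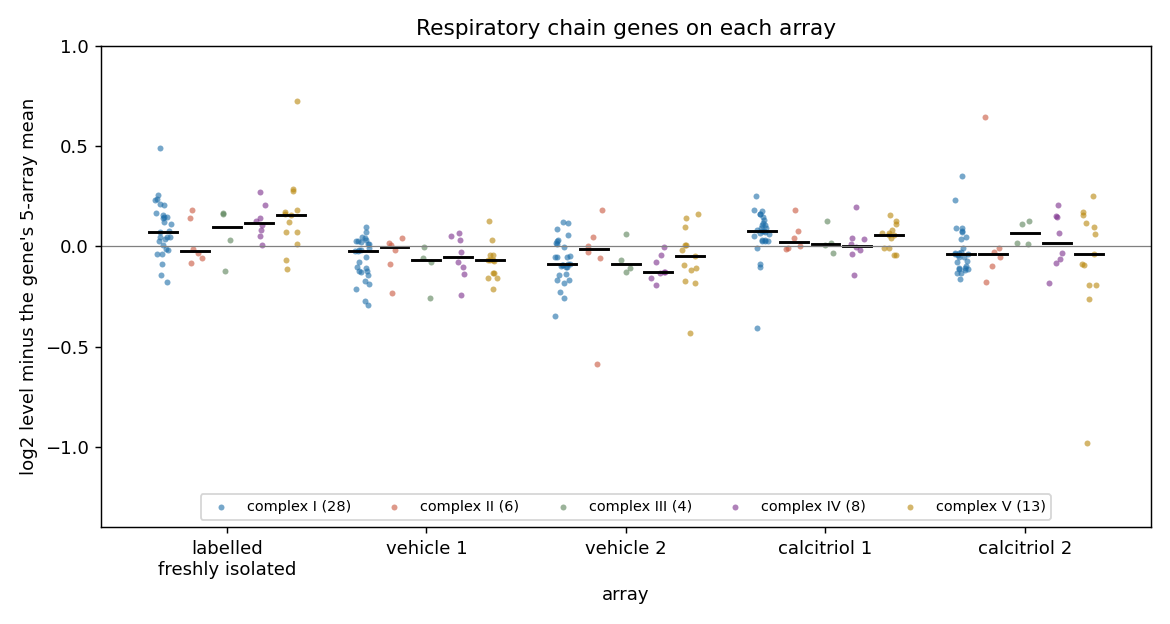
Each point is 1 respiratory chain gene on 1 array, as its log2 level minus its own mean over the 5 arrays (vertical axis), grouped by array (horizontal axis) and coloured by complex, and black lines are medians per complex. Medians lie between -0.13 and 0.16 log2 units on all arrays, and most genes stay within 0.5 log2 units of their own mean.

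Calcitriol and vehicle, each with 2 arrays at day 3, were compared to find the effect of the hormone on cultured cells. The median member had a log2 change of 0.08 with calcitriol, against 0.00 for all probes tested, and 45 members had a higher and 14 a lower mean. The 57 members detected on all arrays ranged from -0.16 for Atp5me to 0.73 for Sdhaf3. No member passed, in a comparison in which 1.83% of all probes tested did. At an unadjusted p under 0.05 limma counted 3 of 59 members (Ndufs3, Ndufa12 and Sdhaf3), which is 5.08%, against 15.8% of all probes tested. The members' median deviation from their 5-array means was -0.06 and -0.08 on the vehicle arrays and 0.06 and -0.03 on the calcitriol arrays, with a pooled SD between replicate arrays of 0.0476. The calcitriol arrays differed from each other by more than calcitriol array 2 did from vehicle array 1. Without calcitriol array 1 the median change was 0.03. With each array scaled to the median of all its probes it was 0.33, where the median of all probes tested was 0.17.

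The 95% intervals given here come from the fit with quantile normalization and cover only the spread between arrays, with 2 arrays per group. They were not computed under other scalings. The 95% interval of the log2 change lay within 1.5-fold in either direction for 51 of 59 members (86.4%), and for 49.9% of all probes tested. The other 8 members were Ndufa12, Ndufs3, Ndufs6-ps1, Ndufv1, Sdhaf3, Cox8a, Atp5mc3 and Atp5mk. Both calcitriol arrays lay above both vehicle arrays for 20 members (33.9%), where 23.3% of all probes tested did so, and below them for 3 members (5.08%), where 24.4% did. These 3 were Ndufs6-ps1, Sdhaf2 and Atp5me. The summed signal of the 12 macrophage markers was 82645 and 68490 units with vehicle, 85873 and 95571 with calcitriol and 102028 on the array labelled freshly isolated. The summed signal of the stellate markers overlapped between the groups, at 81999 and 60018 units with vehicle, 72182 and 91370 with calcitriol and 98236 on that array. These are sums of signals before normalization, on arrays that differed in brightness. Mean signal was 763.5 and 608.2 units with vehicle, 738.5 and 817.3 with calcitriol and 854.8 on that array. The part of these cell types in the members' values was not tested.

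**Figure D2:**
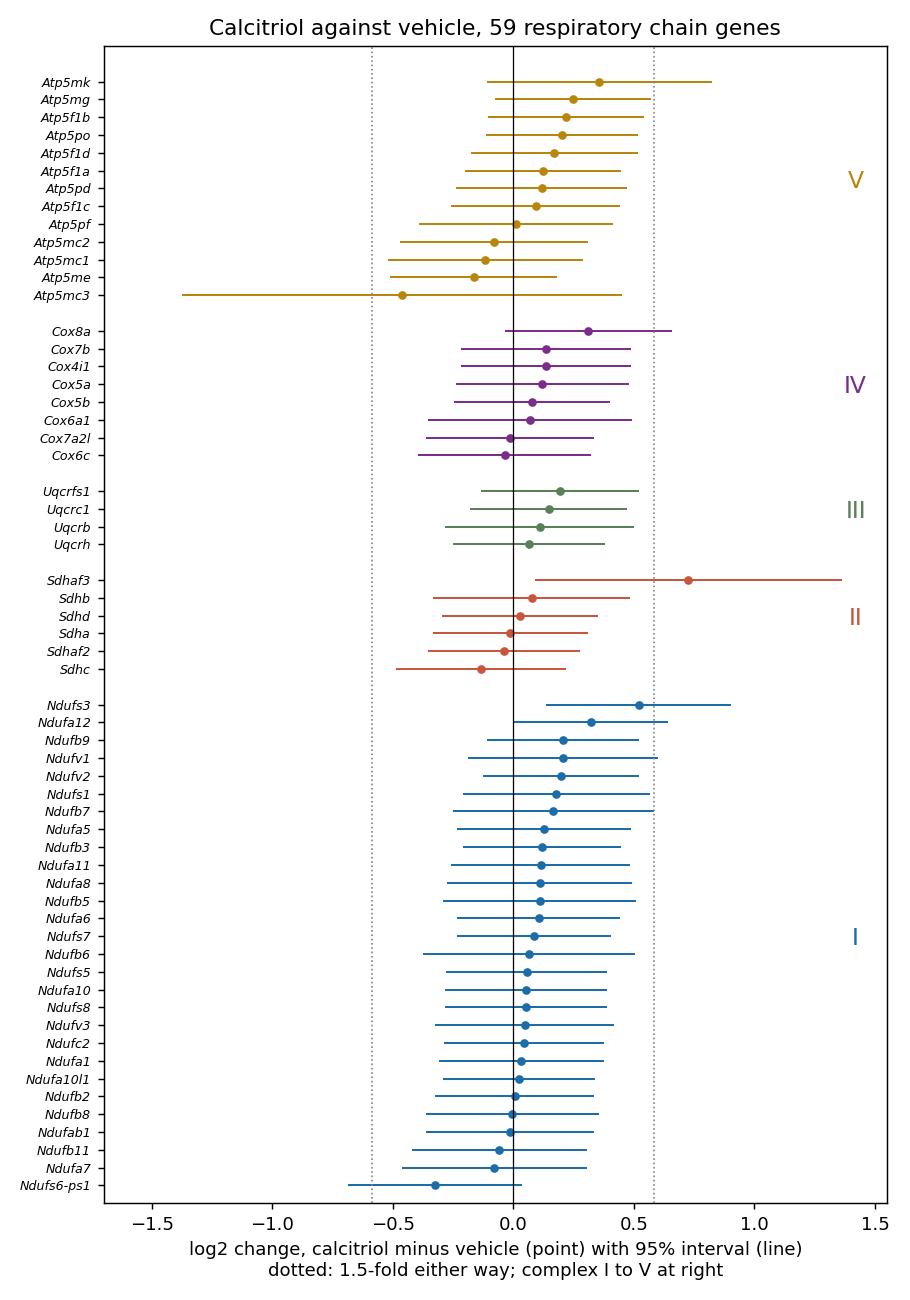
Log2 change of each of the 59 genes, calcitriol minus vehicle (horizontal axis, points), with its 95% interval from limma (lines), grouped by complex, 2 arrays per group. Dotted lines mark 1.5-fold in either direction. Intervals of 51 genes lie between them, and Ndufs3, Ndufa12 and Sdhaf3 are the genes whose interval leaves out 0.

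Among the 28 genes of complex I, 23 had a higher and 5 a lower mean with calcitriol, with a median log2 change of 0.08. Ndufs3, a core subunit of the peripheral arm, had log2 levels of 10.94 and 10.88 with vehicle, 11.28 and 11.58 with calcitriol and 11.46 on the array labelled freshly isolated. Its groups did not overlap, and it was 1.43-fold higher with calcitriol (log2 change 0.52 ± 0.15, SE, n = 2 per group), without passing in limma (adjusted p = 0.193, and 0.0168 to 0.283 over the alternatives that keep all calcitriol and vehicle arrays). It passed with a variance trend and in no other alternative tried. Leaving out each calcitriol or vehicle array in turn, its log2 change ran from 0.37 to 0.67. Without the array labelled freshly isolated its change was 0.52 with an adjusted p = 0.19 in limma.

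Ndufa12, an accessory subunit of the same arm, had log2 levels of 12.29 and 12.39 with vehicle and of 12.67 and 12.65 with calcitriol. These groups did not overlap either, and the difference was 1.25-fold (0.32 ± 0.13, adjusted p = 0.314 in limma). Ndufb9, an accessory subunit of the membrane arm, had 13.41 and 13.43 with vehicle and 13.64 and 13.61 with calcitriol (0.21 ± 0.13). The subunits that bind the flavin and the iron-sulfur clusters at the entry of electrons had changes of the same sign, 0.20 ± 0.16 for Ndufv1, 0.20 ± 0.13 for Ndufv2 and 0.18 ± 0.15 for Ndufs1. On the other side of 0 was Ndufs6-ps1 (fitted at -0.33 ± 0.14), which was above background on 1 of the 2 calcitriol arrays. Also below 0 were Ndufa7 (-0.08), Ndufb11 (-0.06), Ndufb8 (-0.0046) and Ndufab1 (-0.02), the mitochondrial acyl carrier protein. Probes of Ndufa10 (0.05 ± 0.13) and Ndufa10l1 (0.03 ± 0.13) may share transcripts, since the symbols name a gene and its close copy.

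The 4 subunits of complex II had log2 changes from -0.13 to 0.08 with calcitriol. Sdha, the flavoprotein that oxidises succinate, had log2 levels of 11.21 and 11.20 with vehicle and of 11.24 and 11.15 with calcitriol. These overlapped, with a log2 change of -0.01 and a 95% interval from -0.33 to 0.30. Sdhb, the iron-sulfur subunit, had 11.88 and 11.91 with vehicle and 12.15 and 11.79 with calcitriol, so that the calcitriol arrays lay on either side of the vehicle arrays. The membrane anchors Sdhc and Sdhd had changes of -0.13 ± 0.14 and 0.03 ± 0.13, and the value of Sdhc was 0.10 with scaling to the median of all probes. The assembly factor Sdhaf3 had levels of 6.92 and 6.56 with vehicle and 7.14 and 7.80 with calcitriol, a 1.65-fold difference with a wide error (0.73 ± 0.25, adjusted p = 0.258 in limma). Its probe was detected on all 5 arrays but was dim, with signals from 153.0 units on vehicle array 2 to 315.2 units on calcitriol array 2. The change of Sdhaf3 was 0.40 without calcitriol array 2. It ran from 0.47 to 0.85 over the alternatives that keep all calcitriol and vehicle arrays. Sdhaf2, which attaches the flavin to Sdha, had a change of -0.04 ± 0.13.

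All 4 measured genes of complex III had a higher mean with calcitriol, with changes between 0.06 and 0.19. Uqcrfs1, the Rieske iron-sulfur protein, had log2 levels of 12.81 and 12.68 with vehicle and 12.93 and 12.94 with calcitriol (0.19 ± 0.13, adjusted p = 0.528 in limma). Uqcrc1, a core protein, had 11.75 and 11.70 with vehicle and 11.82 and 11.92 with calcitriol (0.15 ± 0.13). Uqcrh, the hinge protein beside cytochrome c1, had 13.54 and 13.56 with vehicle and 13.59 and 13.64 with calcitriol (0.06 ± 0.13). The groups did not overlap for these genes. For Uqcrb, a small subunit of the ubiquinone binding region, the calcitriol levels of 13.11 and 13.12 lay between the vehicle levels of 12.84 and 13.16, and its change of 0.11 was -0.05 without vehicle array 1.

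In complex IV the median log2 change of the 8 genes was 0.10. Cox8a, a small membrane subunit, had log2 levels of 12.98 and 13.09 with vehicle and 13.26 and 13.43 with calcitriol, 1.24-fold apart without overlap (0.31 ± 0.14, adjusted p = 0.356 in limma). Cox4i1, a regulatory subunit that binds ATP, had 13.41 and 13.30 with vehicle and 13.40 and 13.58 with calcitriol, which overlapped (0.14 ± 0.14, and 0.04 without calcitriol array 2). Cox7b had 12.75 and 12.88 with vehicle and 12.86 and 13.04 with calcitriol, with overlap as well. Cox5b, which binds zinc, had 12.33 and 12.35 with vehicle and 12.47 and 12.37 with calcitriol (0.08 ± 0.13, and 0.03 without calcitriol array 1). Cox6a1 had 14.28 and 14.32 with vehicle, between the calcitriol levels of 14.56 and 14.18, and its change of 0.07 was -0.12 without calcitriol array 1. Cox5a (0.12), Cox6c (-0.04) and Cox7a2l (-0.01), which helps complexes III and IV to associate, differed less than their SE.

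In complex V the median log2 change of the 13 genes was 0.12, with 9 above 0 and 4 below. Genes of the catalytic head and the stalk had means above vehicle, with 0.22 ± 0.13 for Atp5f1b, the catalytic beta subunit, 0.12 ± 0.13 for Atp5f1a, 0.17 for Atp5f1d, 0.09 for Atp5f1c and 0.20 ± 0.13 for Atp5po, a stalk subunit. Atp5f1b had log2 levels of 14.19 and 14.23 with vehicle and 14.38 and 14.48 with calcitriol, which did not overlap (adjusted p = 0.466 in limma). The genes of the proton-carrying c ring, Atp5mc1, Atp5mc2 and Atp5mc3, whose mature proteins are identical, had fitted changes of -0.12 ± 0.16, -0.08 ± 0.15 and -0.46 ± 0.37. The Atp5mc3 levels were 6.09 and 6.28 with vehicle and 6.30 and 5.16 with calcitriol, and since the last was not above background its difference has no exact size. The difference between head and ring genes was not tested. Of the small membrane subunits, Atp5mg had 12.62 and 12.72 with vehicle and 12.90 and 12.93 with calcitriol (0.25 ± 0.13), Atp5mk 9.72 and 9.36 against 9.75 and 10.04 (0.36 ± 0.19, and 0.18 to 0.54 without vehicle array 2 or 1) and Atp5me 12.98 and 13.04 against 12.94 and 12.75 (-0.16 ± 0.14).

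**Figure D3:**
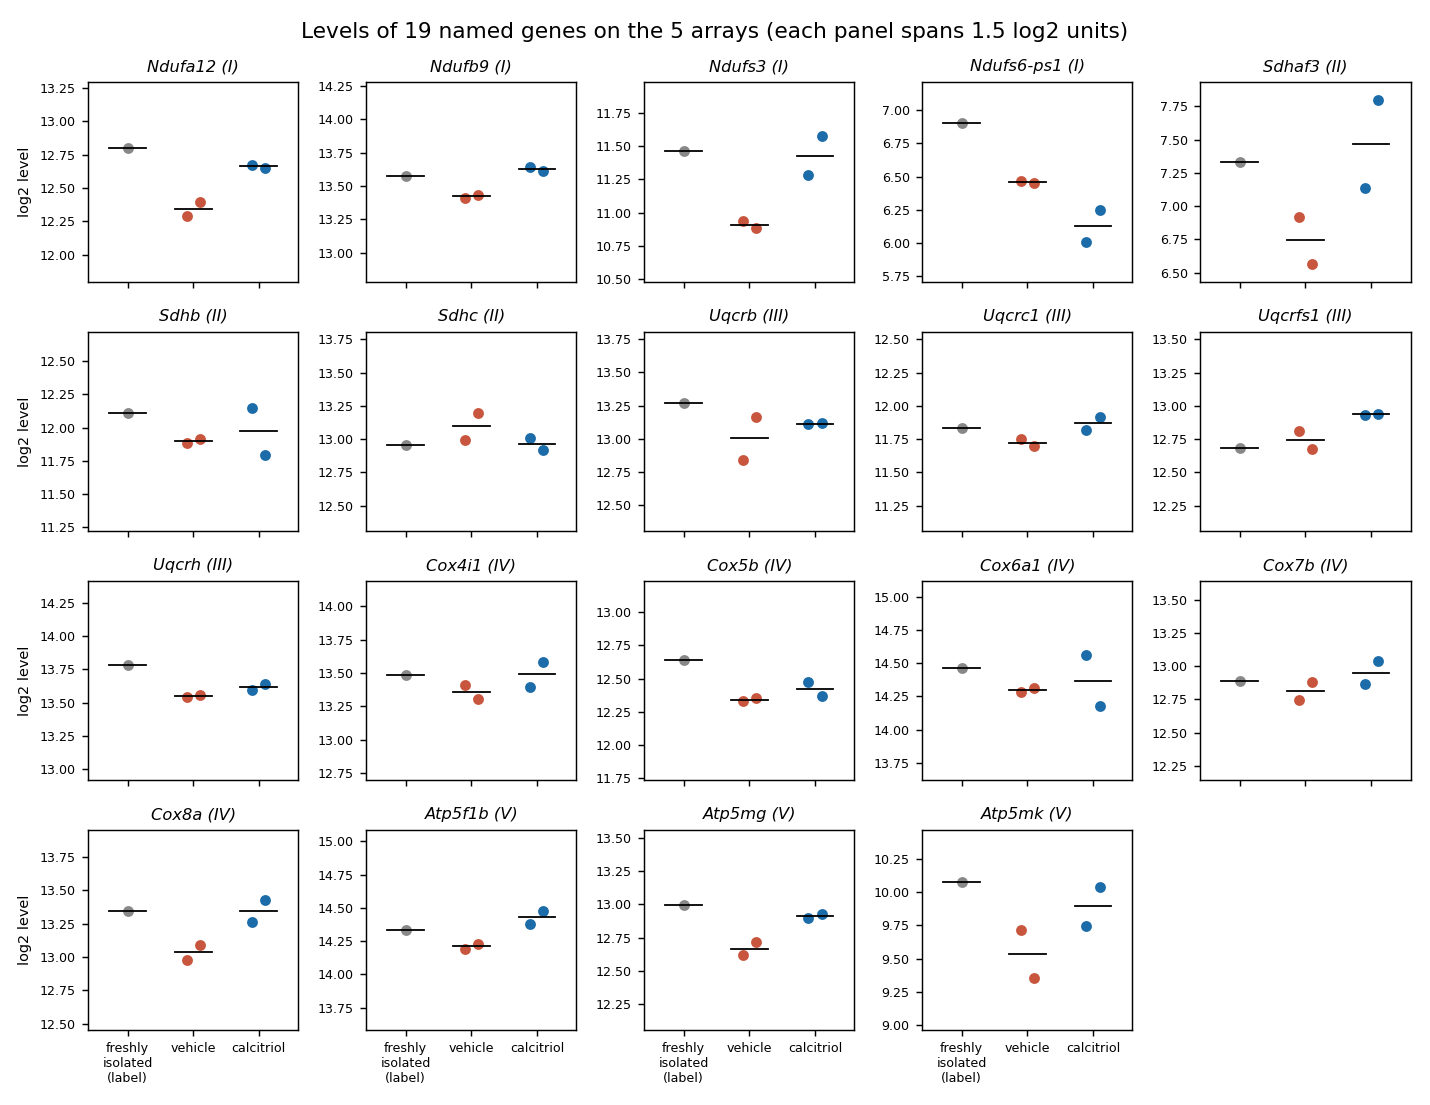
Log2 level (vertical axis) of 19 genes on the array labelled freshly isolated (grey), the vehicle arrays (red) and the calcitriol arrays (blue), with group means as black lines and the complex in parentheses. Every panel spans the same range on its own scale. Ndufs3, Ndufa12 and Cox8a show calcitriol and vehicle levels that do not overlap, and those of Sdhb, Uqcrb and Cox6a1 do.

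Other mitochondrial genes, none of them a member, were read beside these from 6 further lists. With calcitriol, 0 of 26 assembly factor genes passed in limma, and 5 (19.2%) had an unadjusted p under 0.05, against the 15.8% of all probes tested. Their median log2 change was 0.21, with 22 above 0 and 4 below. The lowest p was that of Surf1, a complex IV assembly factor, with log2 levels of 9.84 and 10.01 with vehicle and 10.42 and 10.38 with calcitriol (0.47 ± 0.13, adjusted p = 0.185). The complex I factors Ndufaf2 (0.44 ± 0.14) and Ndufaf4 (0.42 ± 0.14) followed. Of 18 carriers and subunits outside the symbol rule 0 passed, 0 also at an unadjusted p under 0.05, with cytochrome c (Cycs) at 0.37 ± 0.15 and the uncoupling protein Ucp2 at -0.25 ± 0.14. Of 17 citric acid cycle genes 0 passed, and 0 at an unadjusted p under 0.05, with a median of -0.04.

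Of 18 genes of fatty acid oxidation 0 passed, 2 (11.1%) at an unadjusted p under 0.05. Cpt1a, which commits fatty acids to mitochondrial import, had levels of 9.96 and 9.98 with vehicle and 9.49 and 9.49 with calcitriol (-0.48 ± 0.12, adjusted p = 0.152 in limma), and Hadh, an oxidation enzyme, had -0.43 ± 0.16. Of 19 regulators of mitochondrial biogenesis 0 passed, 2 (10.5%) at an unadjusted p under 0.05. The nuclear receptor Ppard was among them, but its probe was above background on no vehicle or calcitriol array, so no fold is given. The other was Hif1a, with levels of 10.48 and 10.06 with vehicle and 10.86 and 10.66 with calcitriol (0.49 ± 0.19, adjusted p = 0.294 in limma). The regulators had a median of 0.01, with 11 above 0 and 8 below. Of 56 mitochondrial ribosome genes 3 (5.36%) had an unadjusted p under 0.05, against 15.8% of all probes tested, with a median of 0.09. In limma 1 of the 56 rose and 0 fell, where 1.83% of all probes tested passed. The gene that rose was Mrps26, a protein of the small mitochondrial ribosome subunit. Its levels were 9.06 and 9.05 with vehicle, 10.19 and 10.13 with calcitriol and 10.09 on the array labelled freshly isolated. It was 2.14-fold higher with calcitriol (adjusted p = 0.0197 in limma). The call was lost when any 1 array of either group was left out, at log2 changes of 1.07 to 1.13. Such a fit has 1 array in a group. Without either calcitriol array no probe of the series passed, so that loss is not particular to Mrps26.

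The vehicle arrays at day 3 were also compared with the array labelled freshly isolated, which had no replicate, so that the fit assumes it varied like the others. Here 0 of 59 members passed in limma, where 1.53% of all probes tested did. Counted at an unadjusted p under 0.05 there were 3 members, Ndufs3, Ndufa12 and Ndufs6-ps1 (5.08%), against 13.9% of all probes tested. The median log2 change was -0.16 with vehicle, against 0.01 for all probes tested, with 47 members below 0 and 12 above. The 8 genes of complex IV were all below 0, from -0.32 to -0.08. Complex V had the median of -0.25, complex I -0.15 and complex III -0.17, while complex II had 0.04.

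Ndufs3 had a level of 11.46 on the array labelled freshly isolated and was 1.47-fold lower with vehicle (-0.55 ± 0.19, 2 arrays against 1, adjusted p = 0.288 in limma). Ndufa12 was at 12.80 on that array and 1.37-fold lower with vehicle (-0.46 ± 0.16, adjusted p = 0.291). Both passed with a variance trend (adjusted p = 0.0434 and 0.0424). Cox8a (-0.31 ± 0.17), Cox5b (-0.30 ± 0.16), Atp5mg (-0.33 ± 0.16) and Atp5mk (-0.54 ± 0.23) had lower values with vehicle that did not pass. Ndufb11, an accessory subunit of complex I, had the highest positive value at 0.21 ± 0.18. Mrps26, of the ribosome list, was 2.04-fold lower with vehicle (-1.03 ± 0.15, adjusted p = 0.0473 in limma). It was the 1 gene of the 6 lists that passed here, where 1.53% of all probes tested did. The call was lost without any 1 vehicle or calcitriol array, at log2 changes of -1.03 to -1.02. Without either calcitriol array no probe of the series passed. Of the 26 assembly factor genes 0 passed, 2 (7.69%) at an unadjusted p under 0.05, with a median of -0.17.

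Between calcitriol and the array labelled freshly isolated 0 of 59 members passed in limma, as did 0.0% of all probes tested. Counted at an unadjusted p under 0.05 there were 2 members, Atp5mc3 and Ndufs6-ps1 (3.39%), against 6.67% of all probes tested. The median was -0.05, with 23 members above 0 and 36 below. Ndufs6-ps1, at 6.91 on that array and 6.01 and 6.25 with calcitriol, had -0.77 ± 0.18 (adjusted p = 0.462), with 1 calcitriol array not above background. Atp5mc3 was at 6.86 there and at 6.30 on calcitriol array 1, and on calcitriol array 2 it was not above background, so its difference has no exact size. Ndufs3 had -0.03 ± 0.19 and Ndufa12 -0.14 ± 0.16. These comparisons share arrays with each other and with that of calcitriol and vehicle, so their values are not independent.

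**Figure D4:**
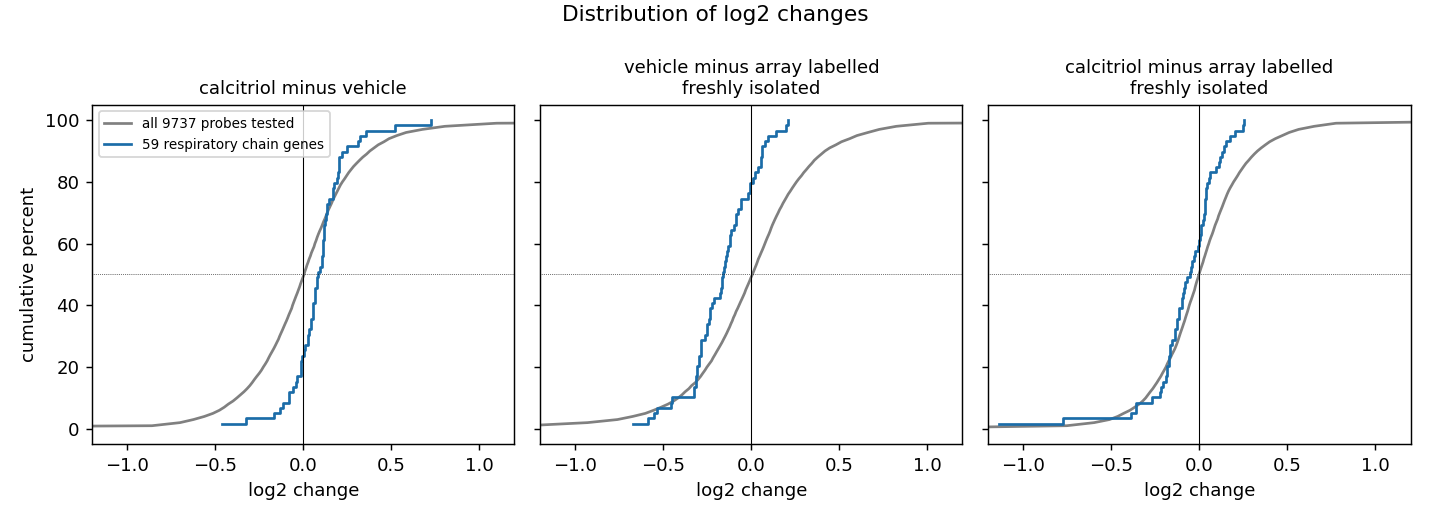
Cumulative percent of genes or probes (vertical axis) by log2 change (horizontal axis) in the 3 comparisons, for the 59 respiratory chain genes (blue) and all 9737 probes tested (grey). The blue curve crosses 50 percent at 0.08 for calcitriol against vehicle, -0.16 for vehicle minus the freshly isolated label and -0.05 for calcitriol minus that label, and is steeper than the grey curve.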

How the data were processed

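Total RNA was labelled as biotinylated cRNA and hybridised to Illumina bead arrays, per the labels' protocols, and the submitters' processing notes name GenomeStudio 2011.1. The deposited table gives, per the file headers, each probe's mean bead intensity, standard error, bead number and a detection p-value against negative controls. Further steps are not given in the sources used here. The deposited value table of the series is on a linear intensity scale, with medians of 115.7 to 115.9 per array. Its sorted values lie within 0.664% of their mean over arrays, and its order of probes within each array is that of the intensities.

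From the deposited intensities, limma 3.58.1 (R 4.3.3) corrected the background with neqc (negative controls inferred from detection p-values, offset 16, quantile normalization, log2), which understates changes of dim probes. Probes detected (p under 0.01) on at least 1 array were kept, 9737 of 22523. The platform annotation gave 1 symbol to 13793 probes, several to 0 and left 8730 unnamed here. All 5 arrays entered a model of 3 group means (2 residual and 3.65 prior degrees of freedom), and two-sided p-values were adjusted by Benjamini-Hochberg over all 9737 probes. SEs are limma's moderated ones. A gene with several probes was represented by its brightest. The fit was tested on simulated data. All arrays lay on the same chip, at positions that differ by group, so position and group cannot be told apart. The number of arrays limits the precision.

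Members and lists were chosen with earlier results of these data known. Values on every array are given, in each complex, for the 3 members with the lowest p in calcitriol against vehicle, the member with the lowest p in the comparison of vehicle with the freshly isolated label, and the brightest member, and for tissue isoforms and their partners. Sdha and Atp5me were added after their values were seen. From each further list up to 3 genes with the lowest p in calcitriol against vehicle were chosen. Replicate numbers were checked for pairing. The deviations of same-numbered vehicle and calcitriol arrays correlated at -0.106, so the numbers are not treated as pairs. The alternatives in the closing section changed background, scaling, source table, filter, variance model, probe choice, pairing and the arrays used.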

Additional observations from a re-analysis of the deposited data

How the results depend on the processing

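No alternative other than a variance trend made a member pass. With the trend 1 member, Ndufs3, passed for calcitriol against vehicle (log2 change 0.52), and 2 members, Ndufs3 (-0.55) and Ndufa12 (-0.46), passed for vehicle against the array labelled freshly isolated. Without each vehicle or calcitriol array in turn 0 members passed in any comparison. Over all probes, the calls for calcitriol against vehicle became 265 upward and 223 downward (from 114 and 64) with no background correction and from the deposited value table, 337 and 347 with the variance trend, 237 and 61 with scaling to the median of all probes, 178 and 147 among probes detected on all arrays, 52 and 21 without vehicle array 1, 60 and 23 without vehicle array 2, and 0 without either calcitriol array. For vehicle against the freshly isolated label they became, from 47 and 102, 179 and 222 with either of the first 2 sources, 238 and 268 with the trend, 56 and 220 with that scaling, 128 and 154 on all arrays, 17 and 43 or 19 and 38 without vehicle array 1 or 2, and 0 without either calcitriol array. For vehicle against that label Mrps26 also lost its call without a filter (adjusted p = 0.0627 in limma) or with robust variance (0.0504).

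The members' median log2 change for calcitriol against vehicle moved from 0.08 to 0.17 with scaling to the median of the kept probes and to 0.33 with scaling to the median of all probes, an alternative chosen after seeing the data that put the median of the tested probes at 0.17. For vehicle against the array labelled freshly isolated the median moved from -0.16 to -0.25 and -0.44 (median of the tested probes -0.18 with the latter), and for calcitriol against that array it was -0.11 with the latter. Leaving out arrays in turn, it ran from 0.0253 to 0.1075 for calcitriol against vehicle. With the replicate block 0 members passed, the median was 0.08, and 92 probes passed upward and 37 downward, against 114 and 64 without it. The deviations of the 2 same-numbered pairs correlated at -0.106, and with the crossed pairing, chosen after seeing the data, 0 members passed and 130 probes passed upward and 74 downward.

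Signs of uncalled members turned. With scaling to the median of all probes these were Cox4i1 (-0.0066), Cox7b (-0.0069), Sdhc (-0.0329) and Uqcrc1 (-0.0227) when calcitriol was set against the freshly isolated label, Sdhc for calcitriol against vehicle (0.10), and Sdhc (-0.14) and Uqcrfs1 (-0.21) for vehicle against that array. With scaling to the kept probes Cox8a (0.0238, calcitriol against that array) and Uqcrfs1 (-0.0144, vehicle against it) turned. Leaving out each array in turn, the range spanned 0 for Cox6a1 (-0.12 to 0.26), Sdhb (-0.10 to 0.25) and Uqcrb (-0.0492 to 0.2686) in calcitriol against vehicle, and for Uqcrfs1 (-0.0048 to 0.1245) in vehicle against the array labelled freshly isolated. For calcitriol against that array it did so for Cox4i1 (-0.09 to 0.10), Cox6a1 (-0.2873 to 0.0935), Cox7b (-0.0254 to 0.1466), Cox8a (-0.0838 to 0.081), Ndufs3 (-0.18 to 0.12), Sdhaf3 (-0.19 to 0.47), Sdhb (-0.317 to 0.0379), Sdhc (-0.0379 to 0.0512) and Uqcrc1 (-0.0171 to 0.081). For calcitriol against vehicle it kept its sign but moved by more than 1.5 times for Atp5mk (0.18 to 0.54), Cox4i1 (0.04 to 0.23), Cox5b (0.03 to 0.13), Cox7b (0.05 to 0.22), Ndufs6-ps1 (-0.45 to -0.21), Sdhaf3 (0.40 to 1.05), Sdhc (-0.24 to -0.03), Uqcrc1 (0.10 to 0.19), Uqcrfs1 (0.13 to 0.26) and Uqcrh (0.04 to 0.09), none of which passed. The cause was not tested.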
